A study of Mus musculus with 72 samples.

Results

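Serpina7 encodes thyroxine-binding globulin, and its transcript was followed here in liver sections of female B6C3F1 mice that drank tertiary butyl alcohol (TBA), a branched alcohol that is also a metabolite of some fuel ethers. B6C3F1 is a hybrid mouse strain common in toxicity studies. The gene is 1 of 21400 gene symbols in the count table, where all features with its symbol were taken, each one apart. It is measured by 2 of the 30146 probes, Serpina7_66792 and Serpina7_78674, and both passed the filter on low counts. Serpina7 was selected on its counts in these same libraries: 1 of its probes was known to stand out at the highest dose after 28 d. Its values are therefore given below as a description, with standard errors and no p value. The question asked of the liver was how TBA bears on thyroid hormone handling in female mice, in which thyroid follicular cell adenomas have been studied.

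Mice aged 9 to 11 weeks received TBA in their drinking water at 10, 20 or 40 mg/mL, or water with 0 mg/mL, for 14 or 28 d. Each of the 8 combinations of dose and duration held 9 singly housed animals, each giving 1 liver library, and the labels name no engineered allele or other agent. Formalin-fixed, paraffin-embedded liver was scraped from slides and read by TempO-Seq, in which pairs of detector oligos that meet on a chosen stretch of a transcript are ligated and sequenced. One library of the 14 d set, 40 mg/mL replicate 5, had 10796 counts in all and 0 of Serpina7 and was left out, which leaves 71 libraries of 7.77 to 12.7 M counts. A scraped section is a bulk sample, in which fewer cells of a type and less RNA per cell cannot be told apart. All 8 hepatocyte markers in the list used to check the tissue (such as Alb, Ttr and Cps1) were detected, at a summed median of 37766 CPM at 40 mg/mL and 49701 CPM in controls at 28 d.

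Thyroxine-binding globulin is made by hepatocytes, secreted into plasma and carries thyroxine and, less tightly, triiodothyronine. It belongs to clade A of the serpins by sequence but does not inhibit proteases. Transthyretin (Ttr) and albumin (Alb) are the other main carriers of thyroid hormone in plasma, and in rats the hepatic transcript of thyroxine-binding globulin is known to change with age and thyroid state.

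The gene lies on the minus strand of chromosome X. The RefSeq promoter table (GRCm38.p6) lists 2 starts for it, 17 bases apart. The 250 bases before the upstream start of these 2, chrX:139085237-139085486, are printed to show the sequence next to the start of the gene whose counts stood out. No other gene in the RefSeq table overlaps Serpina7. Capitals mark the matches to the 3 motifs searched on both strands. The letters GTTAAT, a half-site of the liver factor HNF1, also occur here in lower case but were not among those 3.
Serpina7 promoter, 5′ to 3′: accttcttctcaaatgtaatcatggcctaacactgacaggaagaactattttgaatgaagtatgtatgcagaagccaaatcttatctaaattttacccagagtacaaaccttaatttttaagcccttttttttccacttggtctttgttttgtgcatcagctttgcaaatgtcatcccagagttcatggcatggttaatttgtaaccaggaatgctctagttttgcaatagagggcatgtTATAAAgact
The letters of a TATA box (TATAAA) lie 10 to 5 bases before the upstream start, and the other start is 17 bases further downstream. Of 27025 RefSeq promoters of the same length 13.0% hold these letters on either strand. The nuclear receptor half-site AGGTCA, which 13.8% of promoters hold, has no match in this window, and CCAAT, held by 34.5%, has none. The TATAAA match is one of letters, and it overlaps no other match.

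Serpina7 counts were highest in the livers of mice that drank 40 mg/mL for 28 d. At Serpina7_66792 those 9 animals held 51.6 CPM at the lowest, 288 at the median and 1341 at the highest (CPM, counts per M of library total, M being mega, with totals scaled by TMM, the trimmed mean method of edgeR), against 14.2, 21.2 and 64.2 CPM in the 9 controls of that duration. Of the 9 dosed animals 8 lay above every control and 1 lay within the control range. The mean was 457 ± 456 CPM at 40 mg/mL and 27.8 ± 15.7 CPM in controls (SD, n = 9 each), a fitted difference of 4.04 on the log2 scale (SE 0.75), or 16.5-fold. The ratio of the medians was 13.6 and that of the geometric means 10.2. This difference was the fourth highest of the 17050 features that passed the filter, and Serpina7_66792 was the 1 feature that passed an adjusted p of 0.05 in edgeR's quasi-likelihood test in this comparison (0.00587% called). That call is what chose the gene, so nothing is read from it.

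**Figure D1:**
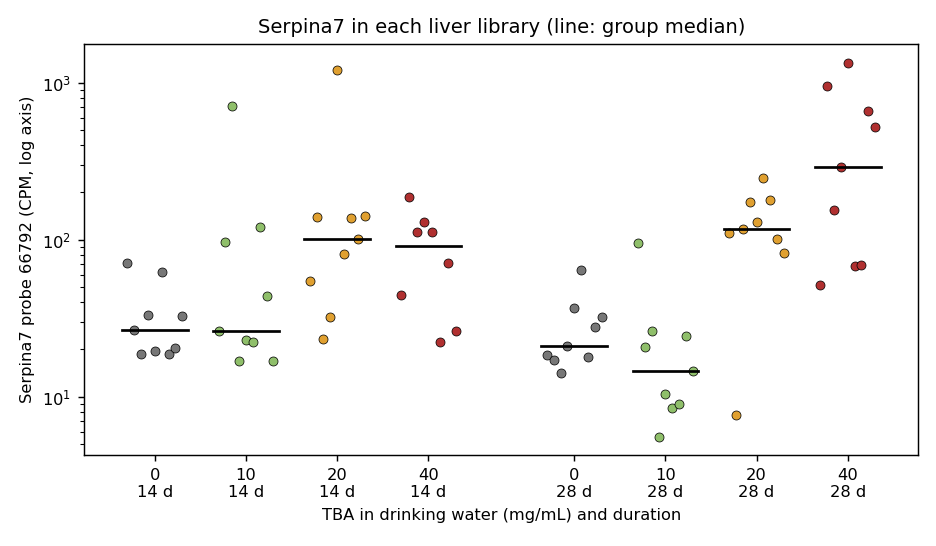
Serpina7 at probe Serpina7_66792 in each of the 71 liver libraries, in CPM on a log axis, by TBA dose (mg/mL) and duration. Each point is 1 animal and each line a group median: the medians at 28 d are 21.2, 14.5, 117 and 288 CPM at 0, 10, 20 and 40 mg/mL, and single animals at 10 and 20 mg/mL for 14 d reach 707 and 1211 CPM.

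At 20 mg/mL for 28 d the shift was smaller. The lowest, median and highest of the 9 dosed animals were 7.63, 117 and 247 CPM, against 14.2, 21.2 and 64.2 CPM in controls. Of these animals 8 lay above every control, between 81.8 and 247 CPM, and replicate 2 lay below every control. The fitted log2 difference was 2.21 (SE 0.69), with means of 128 ± 68.0 CPM at 20 mg/mL and 27.8 ± 15.7 CPM in controls (SD, n = 9 each). In this comparison 0.158% of features were called (27 of 17050), and neither Serpina7 probe was among them.

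At 10 mg/mL for 28 d Serpina7 did not stand above the controls. The 9 dosed animals ranged from 5.58 to 95.2 CPM with a median of 14.5 CPM, against 14.2 to 64.2 CPM with a median of 21.2 CPM in controls. Only replicate 1 lay above every control, while 4 animals lay below every control. The log2 difference of -0.22 (SE 0.68) is smaller than its error. No feature was called in this comparison by edgeR (0% called), where 707 features had an unadjusted p under 0.05, DESeq2 called 1 and limma 14.

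At 14 d the highest median was that of 20 mg/mL. There the 9 animals held 23.4 CPM at the lowest, 101 at the median and 1211 at the highest, against 18.6, 26.7 and 70.9 CPM in the 9 controls of that duration. Of the 9 dosed animals 6 lay above every control and 3 within the control range. The fitted log2 difference was 2.67 (SE 0.70), and it was 1.40 without replicate 5, the animal at 1211 CPM, whose next highest fellow held 142 CPM. The share of features called was 0.0352% (6 of 17050), without either Serpina7 probe.

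In the 8 libraries at 40 mg/mL for 14 d Serpina7 ranged from 22.3 to 187 CPM with a median of 91.2 CPM, against 18.6 to 70.9 CPM with a median of 26.7 CPM in controls. Of the 8 animals 5 lay above every control and 3 within the control range. Means were 88.0 ± 57.2 CPM at 40 mg/mL (SD, n = 8) and 33.7 ± 19.6 CPM in controls (SD, n = 9), a log2 difference of 1.38 (SE 0.69). This was the comparison with the most calls (6.52% of features, 484 higher and 627 lower), and neither Serpina7 probe was called. Library composition differed here: the mean TMM scaling factor was 1.24 ± 0.25 at 40 mg/mL (SD, n = 8) and 0.897 ± 0.034 in controls (SD, n = 9). With this factor (log2) added to the model the Serpina7 difference was 2.51. The factor ran from 0.978 to 1.58 at 40 mg/mL and from 0.847 to 0.961 in controls, without overlap. With the factor in the model, dose and factor therefore cannot be set apart here, which holds for every gene of this comparison below. When the 11 libraries with the highest factors, 4 of them in this group, were left out of the fit, the Serpina7 difference was 1.51.

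At 10 mg/mL for 14 d a few animals carried the mean. The 9 animals held 16.9 CPM at the lowest, 26.3 at the median and 707 at the highest, against 18.6, 26.7 and 70.9 CPM in controls. Replicates 2, 3 and 7 lay above every control, at 97.0, 707 and 120 CPM, 2 animals lay below every control, and the medians differed little. The fitted log2 difference, which compares means, was 1.82 (SE 0.68), but the ratio of medians was 0.985, and without replicate 3 the difference was 0.44. No feature was called by edgeR (0% called), where 736 had an unadjusted p under 0.05, DESeq2 called 12 and limma 4.

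Ordered by mean log2 CPM, the groups ran from 8.00 ± 1.78 at 40 mg/mL for 28 d down, through 6.66 ± 1.64 at 20 mg/mL for 14 d, 6.62 ± 1.45 at 20 mg/mL for 28 d, 6.13 ± 1.12 at 40 mg/mL for 14 d and 5.60 ± 1.78 at 10 mg/mL for 14 d (SD). The controls of 14 d and 28 d came next at 4.90 ± 0.73 and 4.65 ± 0.68, and 10 mg/mL for 28 d was lowest at 4.05 ± 1.20 (SD). The largest step between neighbours in this order, 1.34 between the first and the second group, is smaller than the pooled SD of those groups (1.71), and each of the other 6 steps is also smaller than the pooled SD of its pair. That SD is the spread between single animals, not the error of a difference between group means. The controls of the 2 durations were close, with a log2 difference of -0.28 (SE 0.67) for 28 d over 14 d. Taking both durations together, 29 of 53 dosed animals lay above the highest of the 18 controls (70.9 CPM) and 5 lay below the lowest (14.2 CPM).

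The course over doses was as follows. At 28 d the fitted slope over 0, 10, 20 and 40 mg/mL was 1.12 log2 units per 10 mg/mL (SE 0.17), and Serpina7 at 40 mg/mL was above that at 20 mg/mL by 1.84 (SE 0.68). At 14 d the slope was 0.28 (SE 0.16), and 40 mg/mL was below 20 mg/mL, with a log2 difference of -1.28 (SE 0.69). That gap rests on 1 animal, since without replicate 5 at 20 mg/mL the difference of 20 mg/mL from controls was 1.40, beside 1.38 at 40 mg/mL. The 40 mg/mL effect was larger at 28 d than at 14 d by 2.66 log2 units (SE 0.97), and the 10 mg/mL effect differed the other way, by -2.04 (SE 0.96), with the 14 d part of it at 1.82, or 0.44 without replicate 3. For 20 mg/mL the difference between durations, -0.46, was within its SE of 0.94. The 3 comparisons of a duration share their control animals, and the 2 durations used different animals.

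The second probe gave similar fitted differences at a lower count, with more overlap with the controls. Serpina7_78674 collected 6550 counts over the 71 libraries, against 93660 at Serpina7_66792, a ratio of 14.3 that lay between 13.0 and 17.1 in the 8 groups. It was at 0 counts in 3 libraries, where 3 counts, the limit that a count of 0 allows for counting error alone, correspond to 0.245 to 0.299 CPM. The 9 animals at 40 mg/mL for 28 d held 3.07 CPM of it at the lowest, 25.7 at the median and 81.4 at the highest. Controls held 0, 2.06 and 5.20 CPM, and 7 of 9 dosed animals lay above every control. At 40 mg/mL for 14 d 2 of 8 animals did so, against 5 at Serpina7_66792. At 10 mg/mL for 28 d 0 animals lay below every control, against 4. Over both durations 29 of 53 dosed animals lay above the highest control at Serpina7_66792, and 22 at Serpina7_78674. Its medians were 1.82, 2.86, 7.87 and 4.03 CPM at 0, 10, 20 and 40 mg/mL after 14 d, and 2.06, 0.857, 7.70 and 25.7 CPM at the same doses after 28 d, so the order of the doses within each duration was that of the other probe except at 10 mg/mL for 14 d. Its fitted log2 differences were 2.08 (SE 0.79), 2.70 (SE 0.79) and 1.33 (SE 0.80) at 10, 20 and 40 mg/mL after 14 d. At 28 d they were -0.44 (SE 0.89), 2.29 (SE 0.81) and 4.10 (SE 0.84), so that at every dose and duration the fitted differences of the 2 probes lay within 1 SE of each other. Across the 71 libraries the deviations of the 2 probes from their group means had r = 0.84 and rho = 0.85. Without the 2 libraries farthest from the median r was 0.82. Within single groups rho ran from 0.23 at 10 mg/mL for 28 d to 1 at 40 mg/mL for 28 d. The probes of 1 library share its section, depth and scaling.

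**Figure D2:**
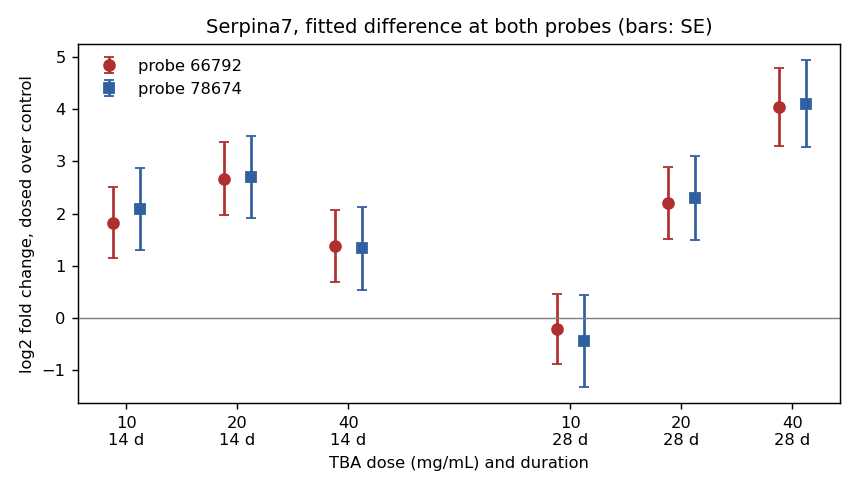
Log2 fold change of Serpina7, dosed over control of the same duration, at both probes in edgeR's fit, with bars of 1 SE, by TBA dose (mg/mL) and duration. Both probes lie highest at 40 mg/mL for 28 d (4.04 and 4.10) and below 0 at 10 mg/mL for 28 d (-0.22 and -0.44).

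**Figure D3:**
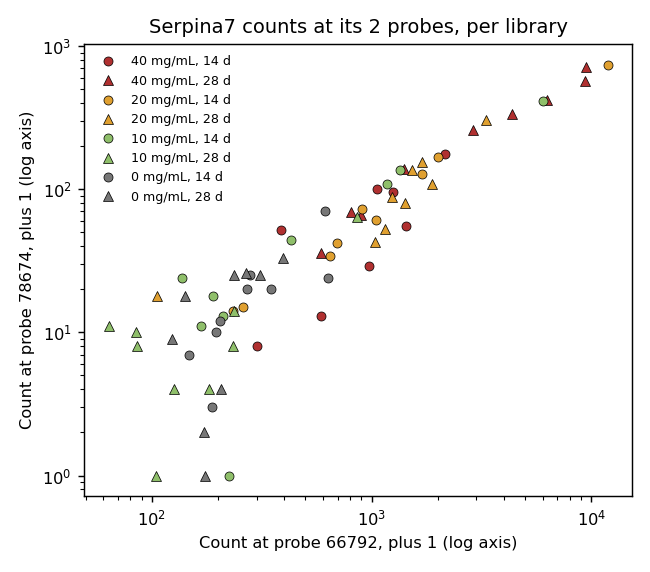
Counts of the 2 Serpina7 probes in each of the 71 libraries, plus 1, on log axes, with colour for dose and shape for duration. Libraries that are high at Serpina7_66792 are high at Serpina7_78674, and the 3 libraries with 0 counts at Serpina7_78674 are low at the other probe too.

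Serpina7 varied more between animals of a group than most features did. The pooled within-group SD of its log2 CPM was 1.37, higher than that of 99.1% of the 17050 features, whose median was 0.54. In the controls the SD was less unusual: 0.73 at 14 d, higher than 75.7% of features, and 0.68 at 28 d, higher than 73.6%. It was 1.78 at 40 mg/mL for 28 d, higher than 99.8%, and the highest animal there held 26.0 times the CPM of the lowest. That spread was not particular to the group. At 10 and 20 mg/mL for 14 d the SD was 1.78 and 1.64 (higher than 99.7% and 98.3%), with ratios of highest to lowest of 41.7 and 51.8. At 10 and 20 mg/mL for 28 d it was 1.20 and 1.45 (92.9% and 91.8%), with ratios of 17.1 and 32.4. The SD of 1.12 at 40 mg/mL for 14 d was higher than that of 80.7% of features.

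The scaling factor moved with Serpina7 in some groups. Across 71 libraries the deviations of log2 Serpina7 CPM and of the log2 TMM factor had r = -0.35 and rho = -0.31 (r = -0.40 without the 2 libraries farthest from the median factor), while those of the total count had r = -0.0050. In the 9 animals at 40 mg/mL for 28 d r was -0.80 and rho -0.77 (r = -0.67 without 2 animals), and in the other 4 groups at 40 mg/mL for 14 d or at 28 d r lay between -0.55 and -0.33. No such relation was seen at 0, 10 and 20 mg/mL after 14 d, with r of 0.27, 0.079 and -0.098 and rho of 0.42, -0.05 and 0.30. At 40 mg/mL for 28 d replicates 6 and 7, with factors of 1.35 and 1.40, held 67.8 and 68.7 CPM. In the same group replicates 2 and 5, with factors of 0.831 and 0.798, held 957 and 1341 CPM. The CPM is divided by the factor, so the 2 quantities are not independent. The difference from controls at 40 mg/mL for 28 d was as large with the factor in the model (4.16) and without the 11 libraries of highest factor (4.28, from 7 dosed and 8 control animals), and with library totals alone it was 4.09.

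Hepatocyte markers were called in another comparison than the one where Serpina7 was highest. Of the 8 hepatocyte markers 5 fell at 40 mg/mL for 14 d (6.52% of all features called there), and their summed level ranged from 10113 to 41193 CPM there, against 42338 to 60030 CPM in controls. The scaling factors were high in that group, and the calls of the markers Alb and Ttr were lost with the factor in the model. As its ranges in the 2 groups did not overlap, that loss does not set dose apart from factor. None of the 8 was called at 40 mg/mL for 28 d, but 0.00587% of all features were called there, so this count says little. The summed level in that group ranged from 15453 to 59541 CPM with a median of 37766 CPM. In the controls of 28 d it ranged from 14458 to 63929 CPM with a median of 49701 CPM. At 20 mg/mL for 28 d none was called either, beside 0.158% of all features. The summed level there ranged from 12075 to 45130 CPM with a median of 28107 CPM. For Kupffer, sinusoidal endothelial, stellate, bile duct, lymphoid, erythroid and neutrophil cells 6, 6, 7, 3, 3, 2 and 2 markers passed the filter. Of these 1 endothelial and 1 stellate marker fell at 40 mg/mL for 14 d, where 6.52% of all features were called. In the other comparisons 0 were called, beside at most 0.158% of all features. Such counts are near the background shares and say little about these cells. No marker on any of these lists was at 0 in all libraries. Within groups, over the 71 libraries, log2 CPM of Serpina7 had r = 0.27 with the summed hepatocyte markers and r = -0.40 with the summed neutrophil markers, of which 2 of 5 passed the filter and which had a median of 25.3 CPM at 40 mg/mL and 24.4 CPM in controls at 28 d. The part of cell content in the Serpina7 values was not tested.

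The other carriers of thyroid hormone showed no such difference at 28 d. Ttr, which carries thyroxine and retinol-binding protein, averaged 4152 ± 990 CPM at 40 mg/mL and 4092 ± 968 CPM in controls at 28 d (SD, n = 9 each), a log2 difference of 0.02 (SE 0.19, edgeR adjusted p = 0.994). Alb averaged 6079 ± 1691 CPM at 40 mg/mL and 5627 ± 1522 CPM in controls at 28 d, a difference of 0.11 (SE 0.22, edgeR adjusted p = 0.981). Serpina6, the corticosteroid-binding globulin and a close clade A relative of Serpina7, averaged 377 ± 176 CPM at 40 mg/mL and 462 ± 160 CPM in controls at 28 d, a difference of -0.29 (SE 0.38, edgeR adjusted p = 0.975). At 14 d Ttr averaged 3037 ± 1647 CPM at 40 mg/mL (SD, n = 8) and 4735 ± 669 CPM in controls (SD, n = 9), and it fell by 0.64 on the log2 scale (SE 0.20, edgeR adjusted p = 0.0352, 6 of 8 animals below every control). Alb fell by 0.72 there (SE 0.22, edgeR adjusted p = 0.0368, 6 of 8 animals below every control), with 3665 ± 2123 CPM at 40 mg/mL and 6029 ± 662 CPM in controls, and Serpina6 differed by -0.78 (SE 0.40, edgeR adjusted p = 0.28). The Ttr and Alb calls at 14 d were lost with the factor in the model (edgeR adjusted p = 0.873 for Ttr and 0.824 for Alb), without the 11 libraries of highest factor (edgeR adjusted p = 0.823 for Ttr and 0.830 for Alb), and in 8 and 10 of 17 fits that left out 1 library. Within groups, log2 CPM of Ttr, Alb and Serpina6 had r = 0.34, 0.20 and 0.12 with that of Serpina7 over the 71 libraries, which share depth and scaling.

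**Figure D4:**
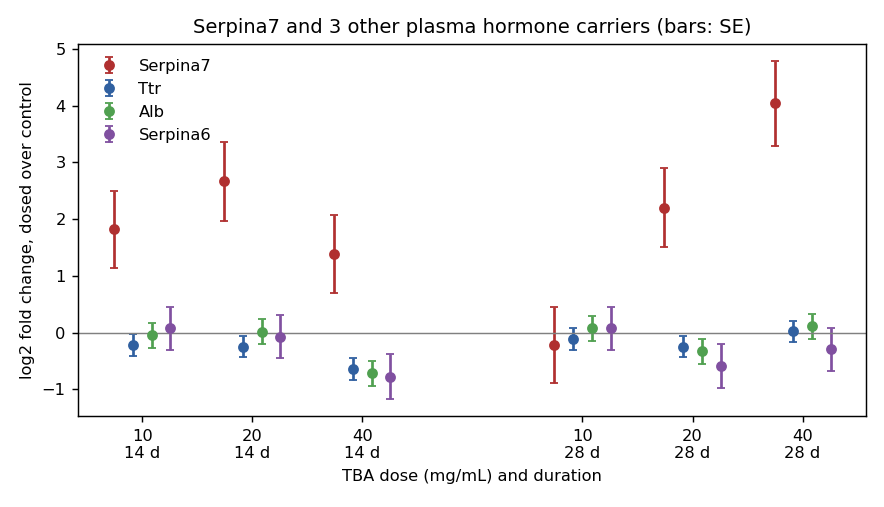
Log2 fold change, dosed over control of the same duration, of Serpina7 (probe Serpina7_66792), Ttr, Alb and Serpina6, with bars of 1 SE. At 40 mg/mL for 28 d Serpina7 lies at 4.04 while Ttr, Alb and Serpina6 lie at 0.02, 0.11 and -0.29, and at 40 mg/mL for 14 d the last 3 lie below 0.

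Of 13 listed plasma hormone carriers other than Serpina7, 12 passed the filter and none was called at any dose but 40 mg/mL for 14 d. There 8 of the 12 fell, beside 6.52% of all features called in either direction, with a median log2 difference of -0.74 over the 12 and of 0.06 over all 17050 features. Igfals, the acid-labile subunit that holds insulin-like growth factors in plasma, fell by 1.52 (SE 0.30, edgeR adjusted p = 0.000757, 6 of 8 animals below every control), at 2.82 ± 2.34 CPM at 40 mg/mL and 7.98 ± 2.2 CPM in controls. Apoe, an apolipoprotein, fell by 1.32 (SE 0.27, edgeR adjusted p = 0.000757) at its most abundant probe, and 1 of its 4 probes was not called (log2 difference 0.10). Igfbp4 and Igfbp2, carriers of insulin-like growth factors, fell by 0.76 and 1.21 (edgeR adjusted p = 0.00362 and 0.00559), although the other Igfbp2 probe was not called. Without the 11 libraries of highest factor 2 of the 12 carriers were called, and likewise 2 with the factor in the model. The median of the 12 at 40 mg/mL for 28 d was -0.03. Outside 40 mg/mL for 14 d at most 0.158% of all features were called.

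The serpins nearest to Serpina7 by clade moved at 40 mg/mL for 14 d as well. Of 18 other clade A genes 13 passed the filter. Of these 6 fell at 40 mg/mL for 14 d (6.52% of all features called there, median of the 13 -0.76). At 40 mg/mL for 28 d 0 of the 13 were called, beside 0.00587% of all features (median -0.11). Serpina9, a serpin of germinal centre B cells in humans, averaged 0.617 ± 0.838 CPM at 40 mg/mL (SD, n = 8) and 11.6 ± 8.65 CPM in 14 d controls (SD, n = 9), with all 8 animals below every control (log2 difference -4.28, SE 0.82, edgeR adjusted p = 0.00051). Its call was lost in limma (log2 difference -4.61, limma adjusted p = 0.19). The antitrypsin genes Serpina1d, Serpina1e and Serpina1a fell by 0.76, 1.08 and 0.78 (edgeR adjusted p = 0.000662, 0.000859 and 0.00182). These genes are close copies of each other, so their probes may not tell them apart, and a second Serpina1a probe was not called. The other Serpina1e probe, Serpina1e_62853, fell by 2.39 at 40 mg/mL for 14 d, and also at 20 mg/mL, by 2.31 after 14 d (edgeR adjusted p = 0.0257) and by 1.96 after 28 d (edgeR adjusted p = 0.0497), where the more abundant probe was not called. With the factor in the model 3 of the 13 were called, and without the libraries of highest factor 2. Of 7 serpins of other clades in plasma, 4 fell at 40 mg/mL for 14 d (6.52% of all features called there): Serpind1 (heparin cofactor), Serping1 (complement inhibitor), Serpinf2 (plasmin inhibitor) and Serpinc1 (antithrombin) by 1.10, 0.86, 1.32 and 0.92 (edgeR adjusted p = 0.000416, 0.000726, 0.00845 and 0.0126). None of these 4 was called with the factor in the model, and 1 was called without the libraries of highest factor. None of the 7 was called at 40 mg/mL for 28 d, where 0.00587% of all features were.

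Of 14 genes for uptake and deiodination of thyroid hormone, 11 passed the filter and 3 fell at 40 mg/mL for 14 d, beside 6.52% of all features called there. Slco1a1, an organic anion transporter, averaged 8.00 ± 8.45 CPM at 40 mg/mL (SD, n = 8) and 33.6 ± 12.1 CPM in controls (SD, n = 9), a log2 difference of -2.10 (SE 0.59, edgeR adjusted p = 0.0196). Slc10a1, the bile acid transporter of hepatocytes, fell by 0.53 (edgeR adjusted p = 0.0369). None of the 3 calls was made without the libraries of highest factor. Slco1a1 also fell at 20 mg/mL for 28 d, by 2.40 (SE 0.57, edgeR adjusted p = 0.0497). Of this list 0 genes were called there with the factor in the model and 3 with DESeq2. Dio1, the hepatic deiodinase, differed by -0.56 at 40 mg/mL for 28 d (SE 0.27, edgeR adjusted p = 0.776).

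None of 10 thyroid hormone receptors and cofactors was called at any dose or duration in edgeR. Of all features 6.52% were called at 40 mg/mL for 14 d and at most 0.158% in the other comparisons. With such shares, 0 of 10 says little about these genes. Of 15 liver genes known to respond to triiodothyronine, 14 passed the filter and 4 rose at 40 mg/mL for 14 d (6.52% of all features called there), all of them enzymes or regulators of fatty acid synthesis. Acaca rose by 1.46 (SE 0.27, edgeR adjusted p = 0.000367), Me1 by 1.67 (SE 0.39, edgeR adjusted p = 0.0044), Fasn by 1.67 (SE 0.39, edgeR adjusted p = 0.00477) and Thrsp by 1.84 (SE 0.54, edgeR adjusted p = 0.0271). The Thrsp call was lost in 5 of 8 other settings, with a difference of 0.95 in limma and of 1.71 to 2.07 in the other 4. At 40 mg/mL for 28 d, where Serpina7 was highest, the 4 genes differed by 0.98, 0.96, 0.96 and 0.47 and were not called (edgeR adjusted p = 0.221, 0.624, 0.648 and 0.969). Over the 14 genes the median was 0.19 at 40 mg/mL for 14 d and -0.14 at 40 mg/mL for 28 d, beside 0.06 and 0.03 over all features.

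Of 12 liver transcription factors, Foxa3 alone was called, falling by 0.83 at 40 mg/mL for 14 d (SE 0.21, edgeR adjusted p = 0.00772), which as 1 of 12 is near the 6.52% of all features called there, a call that was lost without the libraries of highest factor (edgeR adjusted p = 0.44). Hnf4a, a nuclear receptor that maintains hepatocyte gene expression, differed by 0.04 at 40 mg/mL for 28 d (SE 0.17, edgeR adjusted p = 0.99). Of 12 genes of oestrogen and growth hormone response, 3 fell at 40 mg/mL for 14 d (6.52% of all features called there): Igf1 by 0.85 (edgeR adjusted p = 4.74e-05), Prlr by 0.87 (edgeR adjusted p = 0.00426) and Ghr by 0.62 (edgeR adjusted p = 0.039), of which Igf1 alone was called with the factor in the model. The second probes of Slc10a1, Igf1 and Ghr were not called. In these 2 lists as well, 0 were called at 40 mg/mL for 28 d, beside 0.00587% of all features. Whether the effects on the listed genes differed between durations was not tested.

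Features whose animal-to-animal pattern was most like that of Serpina7 were sought among 9969 features with a mean of at least 5 CPM, by Pearson r of the deviations of log2 CPM from group means over 71 libraries, which share depth and scaling. The highest was Paics, an enzyme of purine synthesis, with r = 0.67 (rho 0.54, and r = 0.61 without the 2 libraries farthest from the median of Serpina7). Pnp2 (a purine nucleoside phosphorylase), Hnrnpf (an RNA-binding protein), Erp29 (a protein of the endoplasmic reticulum) and Atp2b1 (a calcium pump) followed with r of 0.60, 0.60, 0.60 and 0.58. The lowest were Plcg1 (a phospholipase C), Trpm7 (an ion channel with a kinase domain) and Ap5z1 (an adaptor complex subunit) with r of -0.62, -0.60 and -0.57. For comparison, 1 in 100 of the features exceeded 0.47. In the 40 mg/mL group of 28 d Paics was at 325, 286 and 219 CPM in replicates 2, 5 and 8, the animals highest for Serpina7, and between 92.9 and 150 CPM in the other 6. The 28 d controls held 93.9 CPM of Paics at the lowest, 125 at the median and 135 at the highest. Over the 8 group means the closest were Lnpep, Sept2, Rbm8a, Acnat2 and Wtap, with r of 0.98, 0.97, 0.97, 0.95 and 0.95, but their differences at 40 mg/mL for 28 d were between 0.22 and 0.68 log2 units, against 4.04 for Serpina7. They head a ranking of 9969 features over 8 points, and their within-group r with Serpina7 lay between -0.16 (Wtap) and 0.33 (Acnat2).

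**Figure D5:**
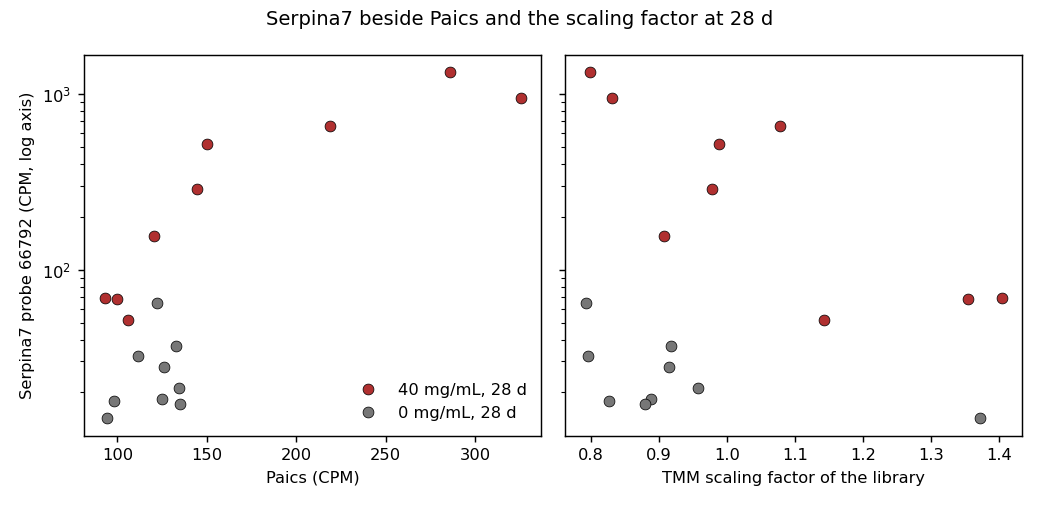
Serpina7 (probe Serpina7_66792, CPM on a log axis) against Paics in CPM (left) and against the TMM scaling factor of the library (right), for the 9 animals at 40 mg/mL and the 9 controls at 28 d. The animals at 40 mg/mL with the most Serpina7 (957 and 1341 CPM) have 325 and 286 CPM of Paics and factors of 0.831 and 0.798.

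The genes beside Serpina7 on the X chromosome gave little signal in liver. Of the 5 genes on each side, 2 of 10 passed the filter, Fam199x and Pwwp3b. Neither was called at any dose (0% to 6.52% of all features called). Their differences at 40 mg/mL for 28 d were 0.13 (SE 0.37, edgeR adjusted p = 0.985) and 1.38 (SE 0.99, edgeR adjusted p = 0.922), at overall means of 2.81 and 0.45 CPM.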

How the data were processed

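The deposited table holds raw read counts per TempO-Seq probe for 72 liver libraries. The tools named in the submitters' processing notes are bcl2fastq 2.20 and Bowtie. The genome build and counting step are not given in the sources used here. Dose and duration in the labels set the groups, and replicates are numbered in accession order. From the counts as deposited, with libraries under 100000 counts left out, CPM and fold changes were computed in R 4.3.3 with edgeR 4.0.16: filterByExpr over the 8 groups (17050 of 30146 features, 99.9% of counts), TMM scaling, 1 mean per group in a robust quasi-likelihood fit, and Benjamini-Hochberg adjustment over all features at 0.05. Log2 CPM used a prior count of 2. Each SE is the size of the log2 difference over the square root of the quasi-likelihood F of its contrast. It thus restates that test and is not a separate estimate of error. DESeq2 1.42.0 and limma 3.58.1 were alternatives. Single results of 2 listed genes are not reported here. Each listed gene is given by its most abundant probe. Listed genes to name were Ttr, Alb, Serpina6 and up to 4 per list with the smallest p among calls at 40 mg/mL. Dio1 and Hnf4a were named outside this rule. The pipeline was tested on simulated data. No 2 libraries of a group were duplicates (0 identical columns, and a chi-square of at least 6.70 per degree of freedom). Serpina7 and the lists were chosen with earlier results of these data known. Of 21400 symbols 20968 matched the RefSeq gene table, which gave the promoter and neighbours (GRCm38.p6). Protein sequences and probe positions were not used here, and levels are not compared between genes, since probes differ in efficiency. The lowest count of Serpina7_66792 in a used library was 63. Each animal is 1 replicate, the labels give no batch or pairing.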

Additional observations from a re-analysis of the deposited data

Results flagged for a closer look

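Single animals stood far from the rest of their group at Serpina7 in 8 of the 16 sets of group and probe examined, each on the high side, by Dixon's ratio of the gap to the range, which chance passes in about 1 in 20 groups of normally distributed values. The CPM values are skewed and the 2 probes share their libraries, so the count of sets is a description only. At Serpina7_66792 these were replicate 3 at 10 mg/mL for 14 d (707 CPM, the next animal at 120), replicate 5 at 20 mg/mL for 14 d (1211 CPM, the next at 142), replicate 1 at 10 mg/mL for 28 d (95.2 CPM, the next at 26.2) and replicate 6 of the 28 d controls (64.2 CPM, the next at 37.0). At Serpina7_78674 the same 3 dosed animals stood apart, at 48.4, 75.9 and 7.01 CPM, and replicate 6 of the 14 d controls did so at 7.10 CPM. No animal at 40 mg/mL was set apart in this way at either probe. The ratio was taken on CPM and not on log2 CPM. On that scale replicate 2 at 20 mg/mL for 28 d, low at Serpina7_66792 (7.63 CPM, the next at 81.8), was not set apart.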

How the results depend on the processing

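The log2 difference of Serpina7_66792 at 40 mg/mL for 28 d lay between 3.59 (limma) and 4.28 over 11 other settings and between 3.65 and 4.30 in 18 fits without 1 library each. At 20 mg/mL for 28 d it lay between 2.16 and 2.98 over the settings and between 2.02 and 2.46 without 1 library. At 40 mg/mL for 14 d the range was 1.21 to 2.51 (2.51 with the log2 scaling factor in the model) and 1.13 to 1.6 without 1 library. At 20 mg/mL for 14 d it was 1.74 to 2.89, and without 1 library 1.40 (replicate 5 left out) to 2.88. At 10 mg/mL for 14 d it was 0.48 (limma) to 1.89, and without 1 library 0.44 (replicate 3 left out) to 2.04. At 10 mg/mL for 28 d it was -0.43 to -0.03, and without 1 library -0.89 (replicate 1 left out) to 0.05 (control replicate 6 left out). No paired analysis was possible because the replicate numbers do not pair animals.

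Counts of features called moved more. The failed library kept gave 1 and 464 calls at 20 and 40 mg/mL after 14 d, and 0 calls at 20 mg/mL after 28 d. With the 2 groups alone, 7 features were called at the lowest and 645 at the highest dose of 14 d, and 11, 52 and 25 at the 3 doses of 28 d. DESeq2 gave 12 and 21 at the lower 2 doses of 14 d, and 1, 287 and 33 at 28 d. limma gave 4, 19 and 640 at 14 d and 14, 463 and 183 at 28 d. The factor in the model gave 8, 25 and 555 at 14 d, and 12 and 66 at the upper 2 doses of 28 d. Leaving out the 11 libraries of highest factor, a setting chosen after seeing the data, gave 7, 19 and 267 at 14 d, and 475 and 10 at the upper 2 doses of 28 d. DESeq2 size factors in edgeR, and no filter, each gave 0 at 20 mg/mL for 28 d. Without 1 library the counts ranged from 0 to 5, 1 to 14 and 584 to 1496 at 10, 20 and 40 mg/mL after 14 d. They ranged from 0 to 760 at 20 mg/mL (760 without control replicate 3) and from 0 to 17 at 40 mg/mL for 28 d (17 without dosed replicate 5), where 5 of 18 fits, each without 1 control, called no feature. At 10 mg/mL for 28 d all 18 gave 0. The cause of these shifts was not tested. Of the 25 calls of named list genes at 40 mg/mL for 14 d, 5 (Acaca, Apoe, Fasn, Igf1 and Igfals) held in each of the 8 settings and 17 fits without 1 library, and 0 turned in direction.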
